A study of Mus musculus with 2 samples.

Results

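The proteasome genes of mouse embryonic stem cells were read from the RNA of 2 libraries of wild-type E14 cells, a stem cell line of 129/Ola background that the labels trace to the blastocyst. The members are the protein-coding genes whose symbol begins with Psm, a letter from a to g and a number, which gave 50 of the 43629 gene identifiers, of which 21551 are protein-coding. By role they are 7 alpha and 7 beta subunits of the core, 5 inducible or tissue-specific core subunits, 9 base and 8 lid subunits, 6 activators or inhibitors and 7 assembly chaperones. The remaining match, Psmc3ip, carries the name for a binding partner and encodes a meiotic recombination factor, so it is no part of the proteasome. The 4 pseudogenes with such symbols (Psmb5-ps, Psmb6-ps, Psmb6-ps2 and Psmb7-ps2) were left out and had between 0 and 6 counts.

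Both libraries hold untreated wild-type cells of 1 line, 1 with the age label P33 and 1 with P42. The labels do not spell out the letter P and name no separate cultures, and the spread between the libraries may be partly technical. Polyadenylated RNA was sequenced, and the counts summed to 40139219 for P33 and 39657578 for P42. The cell identity matched the label: 10 of 10 stem cell markers were detected, with levels that summed to 6363 (P33) and 7751 CPM (P42), where CPM are counts scaled to a common library size. Of 10 fibroblast markers 4 had at least 1 CPM in each library, with sums of 43.7 and 34.9 CPM, and of 8 blood and immune markers 3, with sums of 19.4 and 10.6 CPM. Col3a1, Postn, Dcn and Lum of the fibroblast list and Lyz2, Adgre1 and Csf1r of the blood list had no count in at least 1 library.

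The proteasome is the protease that degrades proteins tagged with ubiquitin. Its core is a barrel of alpha and beta rings, whose outer alpha rings gate the entry and whose inner beta rings carry the cutting sites. A regulatory particle sits on the barrel. Its base holds a ring of ATPases that unfold the substrate, and its lid removes the ubiquitin chain. Interferon and immune cells swap the cutting beta subunits for inducible ones, which makes the immunoproteasome and favours peptides for MHC class I, and alternative activators can replace the regulatory particle.

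Proteasome genes were abundant in both libraries. The members took 0.773% of all counts in P33 (0.771 to 0.776, exact 95% binomial interval) and 0.910% in P42 (0.907 to 0.913), which is 0.842% ± 0.0964 (SD, n = 2). These intervals cover counting error only, since reads that are PCR copies are not independent molecules. Of the 50 members 48 were detected, meaning at least 1 CPM in both libraries, beside 54% of all protein-coding genes. In bulk RNA, fewer cells of a type and less RNA per cell cannot be told apart.

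Levels of different genes were compared after division by the length of the merged exons, in CPM per kilobase (kb). On this scale the median member stood at 56.0 CPM per kb, beside 5.70 for all protein-coding genes whose mean reached 1 CPM. The medians were 80.6 for the core and 80.9 for the regulatory particle, 20.8 for activators and inhibitor, 18.7 for assembly chaperones and 0.395 for the inducible and tissue-specific subunits. The core and the regulatory particle join in the assembled protease, and their medians differed by less than the spread between the libraries, which was 70.0 (P33) and 90.5 (P42) for the core and 66.3 and 90.3 for the regulatory particle. With the length of the longest coding transcript in place of merged exons, these medians were 158 and 144.

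**Figure D1:**
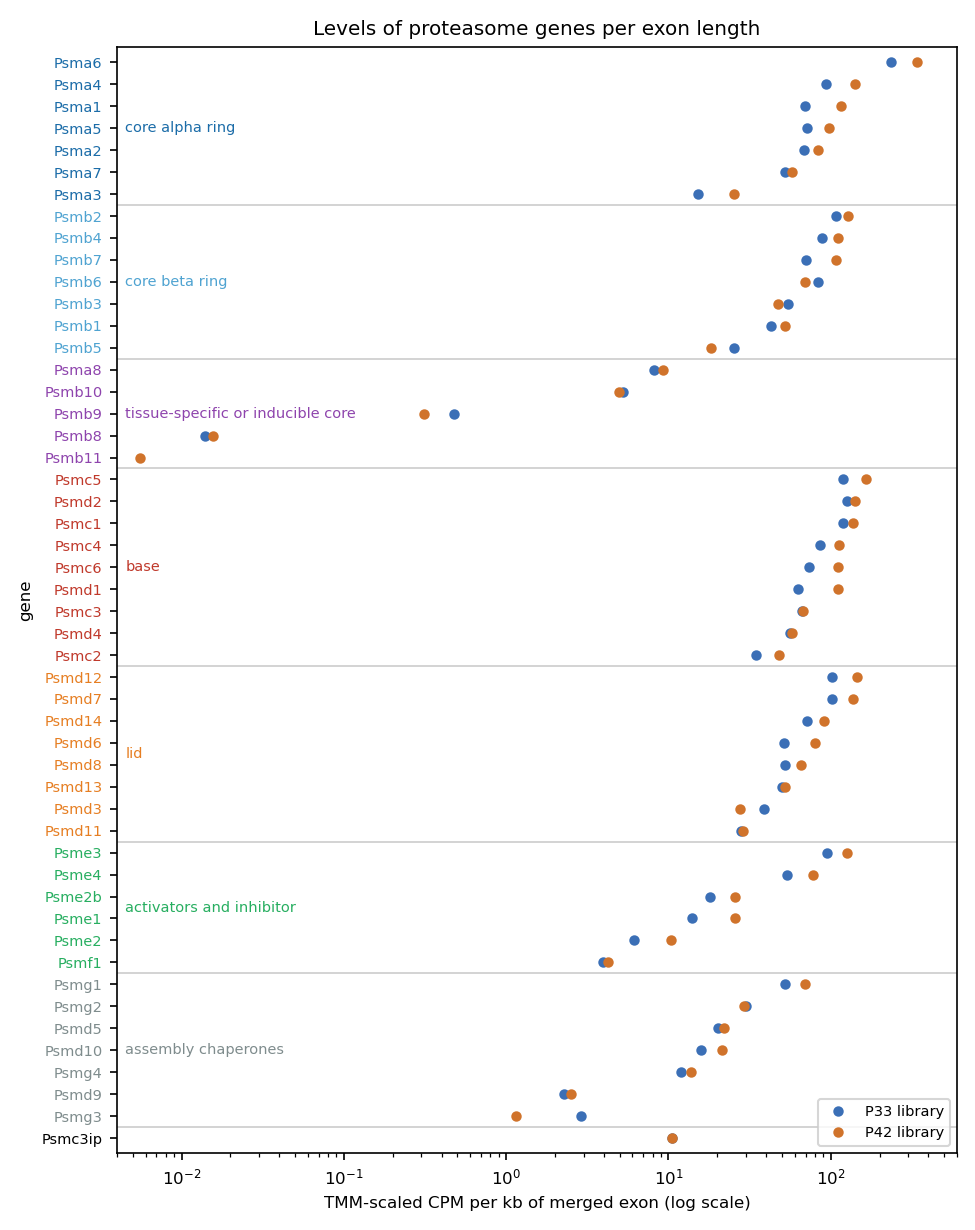
Level of each member in the P33 library (blue) and the P42 library (orange), in TMM-scaled CPM per kb of merged exon on a log axis, grouped by role. Core, base and lid genes lie between 15.3 and 340 CPM per kb in both libraries, while Psmb9, Psmb8 and Psmb11 lie under 1; Psmb11 had no count in P33 and has no blue point.

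In the alpha ring, Psma6 was the most abundant gene per length, at 236 CPM per kb in P33 and 340 in P42, a mean of 288 ± 73.1 (SD, n = 2). Psma4, Psma1, Psma5, Psma2 and Psma7 followed with means from 117 to 55.4. Psma3 was lowest at 15.3 and 25.4, a mean of 20.3 ± 7.12 (SD, n = 2). The ring holds its subunits in equal number, and the RNA levels of its genes spanned 14.2-fold by this measure.

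The low level of Psma3 went with counts on copies of the gene. Processed pseudogenes are copies of a spliced message that were inserted elsewhere in the genome, and a read that lies in a stretch shared by a gene and its copy has no unique origin. Of the 50-base words of the longest coding Psma3 transcript, 22.0% also occur in the processed pseudogene Gm13835 on chromosome 6. This pseudogene held 6867 counts in P33 and 11655 in P42, more than Psma3 itself, with 2510 and 3729. With the counts of 2 such pseudogenes added, Psma3 would stand at 81.0 CPM per kb, inside the range of the other alpha genes. Psma5 shared 55.4% of its words, and Gm8394 and Gm12989 together held 4295 and 5304 counts beside 3999 and 4862 for the gene. The sum would bring Psma5 from 84.6 to 176 CPM per kb. How reads with several positions were counted is not given in the sources used here, and which of these reads came from the genes was not tested.

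**Figure D2:**
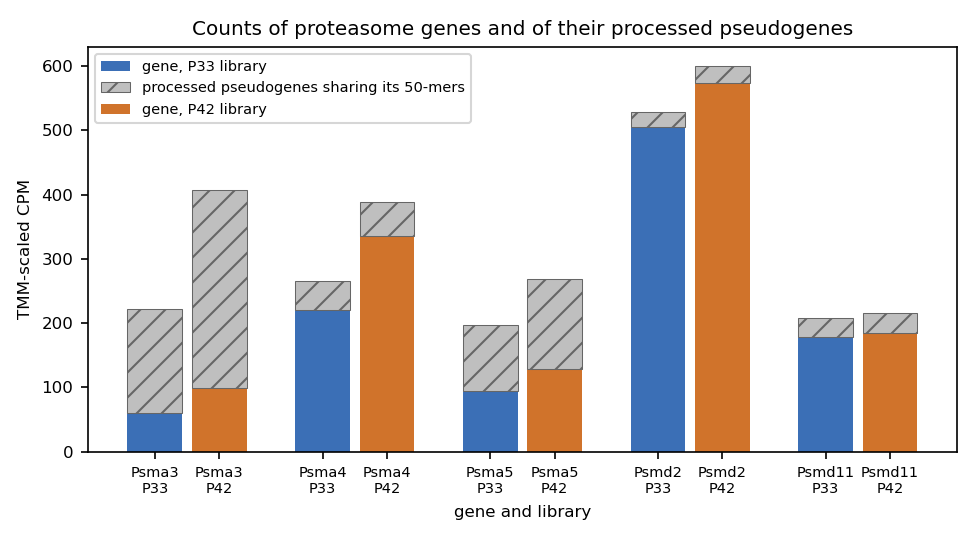
Levels in TMM-scaled CPM of the 5 proteasome genes whose processed pseudogenes held the most counts, for each library, with the gene in colour and its pseudogenes hatched on top. Psma3 itself makes up 26.7% of its sum in P33 and 24.2% in P42 and Psma5 48.2% and 47.8%, while Psma4, Psmd2 and Psmd11 make up 82.8% or more.

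In the beta ring, levels ran from Psmb2 at 118 ± 13.6 CPM per kb (SD, n = 2) down to Psmb5 at 21.8 ± 4.92 (SD, n = 2). By coding transcript length Psmb7 was highest at 263, ahead of Psmb6 at 180 and Psmb2 at 165, and Psmb5 was again lowest. Psmb5, Psmb6 and Psmb7 encode the 3 subunits with cutting sites, of chymotrypsin-like, caspase-like and trypsin-like preference. Psmb6 stood at 83.9 CPM per kb in P33 and 69.2 in P42, and Psmb7 at 70.7 and 107. Psmb5 stood at 25.3 and 18.3, below both in each library. It shares 57.1% of its 50-base words with other annotated genes, led by Gm3375, which is not analysed here, so its level is uncertain.

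Base and lid genes spanned 3.46-fold and 4.31-fold per length, beside 14.2-fold for the alpha ring and 5.41-fold for the beta ring. The lowest alpha and beta genes, Psma3 and Psmb5, have uncertain levels. Without them the alpha ring ran from 55.4 to 288 CPM per kb and the beta ring from 47.5 to 118. Other genes with shared 50-base words stay in these ranges, among them Psma5 (55.4%), Psmb3 (55.8%) and Psma4 (31.5%). Base and lid were not trimmed, though Psmd2 shares 26.4% and Psmd11 18.9%. The base ran from Psmc5 at 143 ± 33.1 CPM per kb, an ATPase, to Psmc2 at 41.2 ± 9.23 (SD, n = 2), another ATPase. The scaffold gene Psmd2 was at 125 CPM per kb in P33 and 142 in P42, and the ubiquitin receptor gene Psmd4 at 55.9 and 57.4. The lid ran from Psmd12 at 123 ± 30.8 to Psmd11 at 28.5 ± 0.614 CPM per kb (SD, n = 2), and Psmd14, whose product is the deubiquitinase of the lid, had 71.5 and 90.3. By coding transcript the lid spanned 63.9 to 171 and the base 90.5 to 202, so the rank of single genes depends on the length used.

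Promoters of the members were searched for short motifs, as they are sequences the rule did not use. RefSeq promoters on GRCm38.p6, from 250 bases before to 50 after the start site, were found for 42 members and 16520 protein-coding genes, with 1 promoter a gene. The 16520 genes were taken whatever their RNA level, while nearly all members were detected. Motif shares among expressed genes alone were not tested. For 6 members (Psmb8, Psmb9, Psmd8, Psmd13, Psme1 and Psme2b) the RefSeq start lies more than 100 bases from the start of the longest coding transcript in GENCODE M21. CCGGAAG, the core of sites for ETS factors, occurs on either strand in 15 of 42 members (35.7%) and in 12.4% of all promoters. Among core, base and lid genes it occurs in 10 of 25. The match nearest the start is shown for these 10 with 10 bases on each side, since its share in the members differed from that of all promoters by the most percentage points of the motifs searched. Sequences run 5′ to 3′ on the strand of the gene, and capitals mark CCGGAAG or its reverse complement.

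Psma6 (chr12:55398813-55398839, + strand): cgccggtgctCCGGAAGcagtagccat
Psmc1 (chr12:100110164-100110190, + strand): ggtggatgcaCTTCCGGcggtggcgat
Psmc2 (chr5:21785181-21785207, + strand): ccagtgagcaCTTCCGGgatggggctc
Psmc6 (chr14:45329714-45329740, + strand): ggcgggccagCCGGAAGgggcggagcc
Psmd2 (chr16:20651616-20651642, + strand): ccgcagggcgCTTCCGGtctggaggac
Psmd4 (chr3:95042723-95042749, - strand): tacagctgttCCGGAAGctgctgcgaa
Psmd6 (chr14:14120974-14121000, - strand): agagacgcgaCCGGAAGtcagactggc
Psmd11 (chr11:80428594-80428620, + strand): gagggcgggtCTTCCGGgtgtgtgttt
Psmd12 (chr11:107479501-107479527, + strand): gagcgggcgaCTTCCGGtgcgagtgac
Psmd13 (chr7:140882378-140882404, + strand): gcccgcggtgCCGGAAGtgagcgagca

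Of the other motifs, TGACNNNGC or TGAGNNNGC, the antioxidant response element bound by NRF1 and NRF2 with small MAF proteins, occurs in 16 of 42 members (38.1%) and 28.9% of all promoters. CCAAT, bound by NF-Y, occurs in 33.3% of members and 38.5% of all, GGGCGG in 54.8% and 48.6%, TATAAA in 9.52% and 12.9%, and GCGCATGC in 7.14% and 3.77%. The core of the interferon-stimulated response element, a pair of GAAA words with any 2 bases between them, occurs in 5 members (11.9%) and 3.42% of all promoters. TTCNNNGAA, the letters of STAT sites, occurs in 3 members (7.14%) and 7.82% of all. Both strands were searched for each motif, a match is a description and not a bound site, and although none of these motifs contains another, their matches may overlap. The 5 members with the interferon-stimulated letters are shown with 10 bases on each side and the letters or their reverse complement in capitals, since the list holds the interferon-inducible activator gene Psme1 beside subunit and chaperone genes. The match of Psme1 lies just after its RefSeq start, which is 134 bases from its M21 start.

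Psmb3 (chr11:97703261-97703290, + strand): cacagtgactTTTCACTTTCcgctttccat
Psmd4 (chr3:95042675-95042704, - strand): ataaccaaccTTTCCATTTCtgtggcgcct
Psmd9 (chr5:123228021-123228050, + strand): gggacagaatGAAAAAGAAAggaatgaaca
Psme1 (chr14:55578493-55578522, + strand): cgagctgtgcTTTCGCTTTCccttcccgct
Psmg4 (chr13:34162969-34162998, + strand): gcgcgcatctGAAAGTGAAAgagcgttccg

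Of the 3 genes for subunits with cutting sites, Psmb5 and Psmb6 have the antioxidant letters close to the start, as shown in capitals with 10 bases on each side, and Psmb7 has no promoter entry.

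Psmb5 (chr14:54618024-54618052, - strand): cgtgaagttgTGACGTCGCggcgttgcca
Psmb6 (chr11:70525338-70525366, + strand): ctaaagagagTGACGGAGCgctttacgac

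Of the immunoproteasome subunits, Psmb8 and Psmb9 were at or near the detection limit and Psmb10 was detected at a higher level. Psmb8, the inducible form of Psmb5, had 2 counts in each library, under the floor of 3 counts that equals 0.0712 (P33) and 0.0794 CPM (P42). Psmb9, the inducible form of Psmb6, had 74 counts in P33 and 43 in P42, or 1.76 and 1.14 CPM. Psmb10, the inducible form of Psmb7, was the most abundant of the 3, with 378 and 317 counts, or 8.97 and 8.39 CPM. Its mean of 5.09 CPM per kb lay below the median of 5.70 for protein-coding genes whose mean reached 1 CPM. By coding transcript length it had 6.62, beside a median of 8.31, and by mean CPM it ranked above 27.1% of those genes. Each inducible gene thus stayed far below its constitutive partner in both libraries. Per length, Psmb9 reached 0.572% of Psmb6 in P33 (0.448 to 0.719, exact 95% counting interval) and 0.450% in P42 (0.325 to 0.607). Psmb10 reached 7.44% of Psmb7 (6.69 to 8.24) and 4.58% (4.09 to 5.12). By coding transcript length these shares of Psmb7 were lower, at 3.28% and 2.02%. Psmb8 reached 0.0555% of Psmb5 (0.00671 to 0.201) and 0.0855% (0.0103 to 0.310), with the uncertain level of Psmb5 below the line, and 0.115% and 0.178% by coding transcript length. Psmb11, the beta subunit of thymic epithelium, had 0 counts in P33 and 1 in P42.

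Psma8, the alpha subunit of the proteasome of spermatocytes and the germ-cell counterpart of Psma7, was detected at 20.2 (P33) and 22.96 CPM (P42). Per length it reached 15.4% of Psma7 (14.4 to 16.6) and 15.8% (14.7 to 17.0), intervals that overlap, and by coding transcript length 8.57% and 8.79%. Other meiotic genes were detected as well: Mnd1, the partner of the Psmc3ip product in strand exchange, at 23.4 and 27.9 CPM, Sycp3 of the chromosome axis at 24.8 and 45.3 CPM, and Psmc3ip at 19.2 and 19.3 CPM. All 5 of the meiotic list and all 5 germ cell markers were detected, the latter with sums of 128 and 272 CPM, of which Stra8, an inducer of meiosis, gave 9.54 and 125. Their part in the level of Psma8 was not tested.

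**Figure D3:**
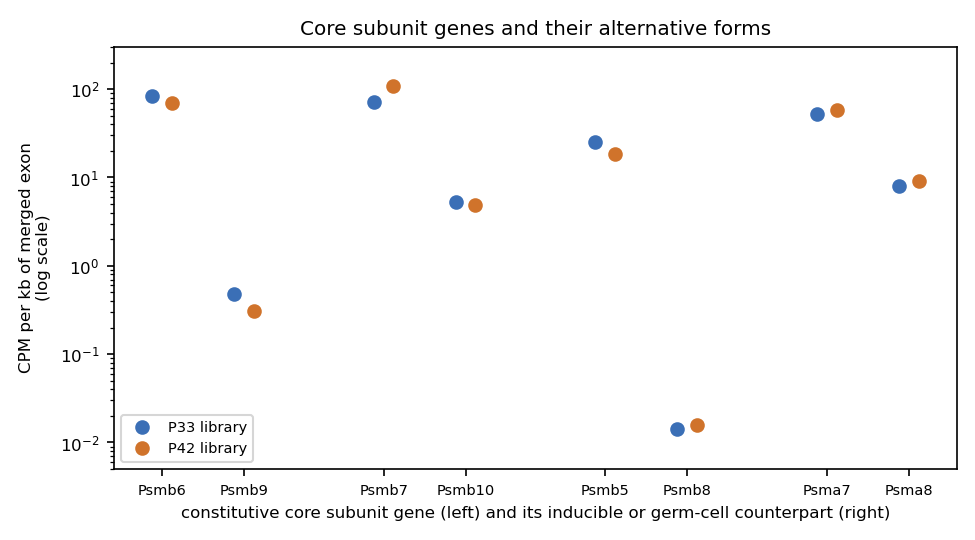
Levels of constitutive core genes and of their inducible or germ-cell counterparts, in CPM per kb of merged exon on a log axis, for the P33 library (blue) and the P42 library (orange). In each pair the constitutive gene lies higher in both libraries, with the narrowest gap for Psma7 and Psma8 and the widest for Psmb5 and Psmb8.

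The next question was how far the members differed between the libraries. With a single library for each age label, replicates cannot check the difference and no test is possible. The difference is stated as the log2 ratio of P42 over P33 after scaling by the trimmed mean of M values (TMM), with an exact 95% interval for counting error only. Over the 48 members whose mean reached 1 CPM the median was 0.30, with quartiles of 0.05 and 0.51. Over all 13737 genes with such a mean the median was 0.04, with quartiles of −0.42 and 0.41. The members were thus shifted upward in P42 by a modest amount and lay closer together, with an SD of 0.41 between genes beside 0.79 for all genes. Most members are abundant, and among genes at 50 CPM or more the SD was 0.30 for members and 0.52 for all genes.

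A gene was counted as different at 2-fold or more with an interval that excluded equality. Of the 48 members none was counted higher and 1 lower, beside 5.07% higher and 9.54% lower of all genes. At 1.5-fold 9 were higher and 2 lower, beside 16.1% and 18.9%. The counting interval lay above equality for 33 members and below it for 6, beside 41.7% and 36.9% of all genes. Most members are abundant, and abundant genes as a whole leaned the same way: at 50 CPM or more the interval lay above equality for 28 of 35 members and for 60.3% of all 4356 such genes, and below it for 3 members and 29.9%. In this abundant class 0 members and 5.72% of all genes were counted at 2-fold. Medians there were 0.34 for members and 0.18 for all genes.

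Scaling by total counts alone lowers every log2 ratio by 0.14. Under it the median of the members was 0.16 and that of all genes −0.10, so the distance between them stayed. In that setting 33 of 48 members lay above 0, in place of 40 with TMM. Beside these 40, 7235 of all 13737 genes lay above 0 with TMM, and 2869 of the 4356 at 50 CPM or more. By total counts 466 of all genes were counted higher at 2-fold and 1658 lower, in place of 697 and 1310.

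**Figure D4:**
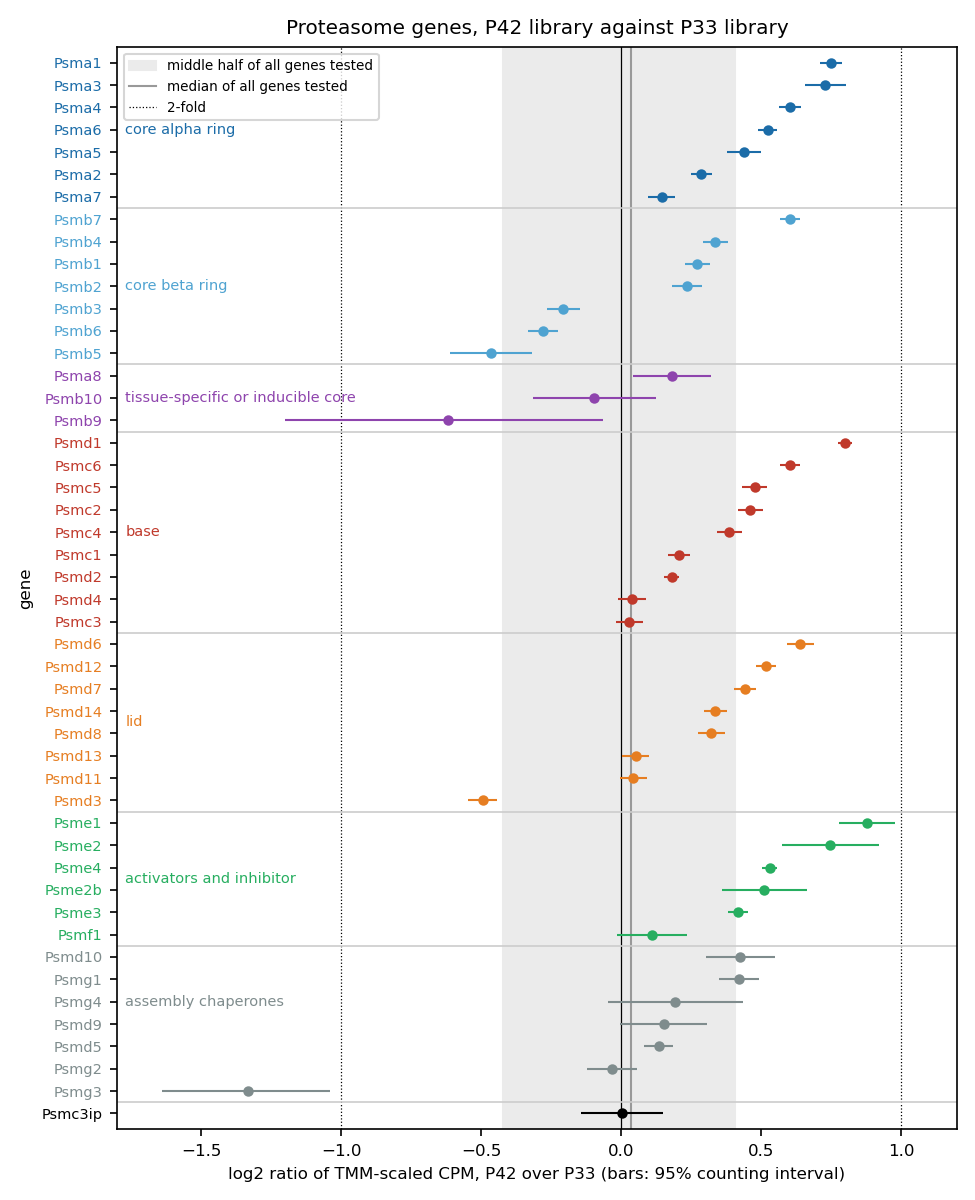
Log2 ratio of P42 over P33 for the 48 members whose mean reached 1 CPM, by role, with 95% counting intervals; the band spans the quartiles of all genes tested, the grey line is their median and dotted lines mark 2-fold. Most points lie between 0 and 0.9, Psmg3 lies beyond 2-fold to the left, and 7 of the points right of 0 (Psmd5, Psmc3, Psmf1, Psmd4, Psmd13, Psmd11 and Psmc3ip) fall left of it when scaled by total counts.

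The alpha ring was higher in P42 throughout. Psma1 stood at 204 (P33) and 344 CPM (P42), a log2 ratio of 0.75 (0.71 to 0.79). Psma3 had 59.5 and 98.7 CPM, a ratio of 0.73 (0.66 to 0.80), and 0.87 (0.84 to 0.91) with its pseudogenes added. All 7 ratios lay above 0, from 0.14 for Psma7, which is at 0.00 by total counts, to 0.75, with the exception of Psma2 at −0.05 when the trend with GC content and exon length is removed. The median of the ring was 0.52, and 0.28 once the GC-length trend is taken out. The order within the ring also depended on that trend, since without it Psma7 was highest at 0.48 and Psma1 stood at 0.44.

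The beta ring was divided. Psmb7 stood at 242 (P33) and 368 CPM (P42), a log2 ratio of 0.60 (0.57 to 0.64), and Psmb4, Psmb1 and Psmb2 had ratios from 0.24 to 0.34. Against them Psmb5 stood at 22.7 and 16.5 CPM, a ratio of −0.46 (−0.61 to −0.32), Psmb6 at 157 and 129 CPM, a ratio of −0.28 (−0.33 to −0.23), and Psmb3 at 125 and 108 CPM, a ratio of −0.21 (−0.27 to −0.15). Of the 3 genes for cutting subunits, 1 was therefore higher and 2 were lower in P42, and these directions were the same under each scaling tried. Their sizes were not: after removal of the GC-length trend Psmb5 was at −0.18 and Psmb7 at 0.26. The median of the ring was 0.24, and 0.15 after that removal or 0.09 by total counts. Psmb3 shares 55.8% of its 50-base words with pseudogenes, so its level is uncertain. With the counts of 3 of these added its ratio was −0.19 (−0.25 to −0.13). Exons of Psmb7 overlap those of Nek6 on the opposite strand over 11.8% of their bases, and Nek6 had 1509 and 1349 counts. Of the 50-base words of the longest coding Psmb7 transcript 28.1% are shared with Nek6. The strand setting of the counting is not given in the sources used here.

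In the regulatory particle 16 of 17 ratios lay above 0, and 12 of 17 by total counts, where Psmc3, Psmd4, Psmd11 and Psmd13 fall below. With TMM 2869 of all 4356 genes at 50 CPM or more lay above 0. Psmd1, a scaffold subunit of the base, stood at 460 (P33) and 800 CPM (P42), a log2 ratio of 0.80 (0.77 to 0.83). It lies on chromosome 1 (86064387 to 86139151, mm10), whose 638 genes at 5 CPM or more had a median ratio of 0.66, beside −0.57 for chromosome 15 and values from −0.09 to 0.24 for the others. The part of that chromosome-wide shift in the value of Psmd1 was not tested. The ATPase gene Psmc6 had 256 and 388 CPM, a ratio of 0.60 (0.57 to 0.64), while the ATPase gene Psmc3 had 173 and 176 CPM, a ratio of 0.03 (−0.02 to 0.08). After removal of the GC-length trend Psmc6 was at 0.26 and Psmc3 at 0.20, closer together than before.

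The lid gene Psmd6 had the highest lid ratio, with 144 (P33) and 224 CPM (P42), at 0.64 (0.59 to 0.69). Psmd3 went the other way, with 192 and 137 CPM and a ratio of −0.49 (−0.55 to −0.44), the lowest of the regulatory particle. After removal of the GC-length trend Psmd3 was at −0.21 and Psmd11 at −0.18, and the median of the particle was 0.20 in place of 0.34.

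The alternative activators were higher in P42 as well. Psme1 and Psme2 encode the alpha and beta subunits of the interferon-inducible activator PA28 and lie near each other on chromosome 14 (55578123 to 55581529 and 55587441 to 55591113, mm10). Psme1 had 31.0 (P33) and 57.0 CPM (P42), with a log2 ratio of 0.88 (0.78 to 0.98), the highest of all 48 members, and 1.10 after removal of the GC-length trend, where it passed 2-fold. Psme2 had 10.9 and 18.2 CPM, a ratio of 0.75 (0.58 to 0.92). The median over chromosome 14 was 0.24.

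Psme2b, a near copy of Psme2 on chromosome 11, had 15.02 and 21.4 CPM, a ratio of 0.51 (0.36 to 0.66). Psme2 shares 59.3% of its 50-base words with other genes, mainly Psme2b, so the split between them is uncertain. Their sum of 1091 and 1498 counts gave a ratio of 0.62 (0.50 to 0.73).

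Psme3, the nuclear activator PA28 gamma, was far more abundant at 278 (P33) and 371 CPM (P42), a ratio of 0.42 (0.38 to 0.45). Per length Psme1 reached 14.9% of Psme3 (14.05 to 15.8) in P33 and 20.5% (19.6 to 21.5) in P42. By coding transcript length these shares were 26.7% and 36.8%. The choice of length changes both shares by the same factor, so it cannot check the direction between the libraries. Psme4, the activator PA200 that acts on histones in germ cells, had 449 and 649 CPM, a ratio of 0.53 (0.50 to 0.56). The gene of the inhibitor, Psmf1, was at 25.3 and 27.4 CPM, and its ratio of 0.11 (−0.01 to 0.24) falls to the other side of 0 by total counts.

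Of the assembly chaperones, Psmg3 was the member counted lower. It had 355 counts in P33 and 126 in P42, or 8.42 and 3.34 CPM, and a log2 ratio of −1.33 (−1.64 to −1.04). Psmg3 lies on chromosome 5 (139823592 to 139826885, mm10), whose median was 0.05, and its partner in the chaperone of the alpha ring, Psmg4, had 6.67 and 7.63 CPM and a ratio of 0.19 (−0.05 to 0.44). The other pair of that pathway, Psmg1 and Psmg2, had ratios of 0.42 (0.35 to 0.49) and −0.03 (−0.12 to 0.06). The chaperones of the base, Psmd5, Psmd9 and Psmd10, ran from 0.13 to 0.42, with Psmd5 just below 0 by total counts. Per length Psmg3 stood at 2.91 and 1.15 CPM per kb, beside 2.26 and 2.52 for Psmd9, so that these 2 were the lowest of the 7 and their order differed between the libraries. The exon bases of Psmg3 overlap those of Gm26938, a gene on the same strand with 0 counts, over 9.68%. Of its 50-base words 22.7% are shared with Gm26938. How this overlap affects the counts of Psmg3 was not tested.

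The inducible and tissue-specific core subunits ran both ways. Psmb9 had a log2 ratio of −0.62 (−1.20 to −0.06), with the P33 value above the P42 value, and Psmb10 one of −0.09 (−0.32 to 0.12), which is 0.15 after removal of the GC-length trend. Psma8 had a ratio of 0.18 (0.04 to 0.32), and −0.17 with the trend removed. Psmb8 and Psmb11 had too few counts for a ratio.

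Genes of antigen processing by MHC class I were low and ran both ways, with 9 of 12 detected. The presenting chain gene H2-K1 stood at 13.6 (P33) and 39.7 CPM (P42) and its light chain B2m at 7.21 and 19.9 CPM, both counted higher, with ratios of 1.55 (1.41 to 1.69) and 1.46 (1.27 to 1.66). The peptide transporter gene Tap1 stood at 5.20 and 1.11 CPM and was counted lower, with a ratio of −2.21 (−2.74 to −1.74). Tap1 and Psmb9 start on opposite strands and overlap at their starts, over 5.79% of the exon bases of Psmb9. Both had the lower value in P42, Tap1 by more. Irf1, a factor that acts on both genes in the interferon response, was at 23.8 and 27.2 CPM.

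Of the 48 members 10 have the start of a protein-coding gene as the nearest opposite-strand start within 1000 bases (20.8%). Of protein-coding genes tested, 13.7% have any protein-coding start on the opposite strand within that distance. The member count leaves out members with a noncoding start nearest, so the shares are not like for like. In 4 of these 10 member pairs both ratios lay above 0. Taken singly, 40 of the 48 members and 7235 of all 13737 genes lay above 0. Whether the pairs differ from unrelated genes was not tested. Psmc5 with the ribosome biogenesis gene Ftsj3 had ratios of 0.48 and 0.34, Psmc2 with the chaperone gene Dnajc2 0.46 and 0.32, Psmd10 with the autophagy protease gene Atg4a 0.42 and 0.23, and Psma2 with the mitochondrial ribosomal gene Mrpl32 0.29 and 0.21. The interval of Atg4a (−0.08 to 0.55) covered 0, and Psma2 was at −0.05 after removal of the GC-length trend. Others went apart, as Psme2 at 0.75 with Rnf31 at −0.44 and Psmd13 at 0.05 with Sirt3 at −0.30. By total counts Psmd13 was at −0.09, on the same side of 0 as Sirt3. Exons of Psmd13 overlap those of Sirt3 over 10.1% of their bases.

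Proteasome genes outside the symbol pattern behaved unevenly. The assembly factor gene Pomp had 130 (P33) and 137 CPM (P42), the small lid subunit gene Sem1 57.7 and 73.8 CPM, and the ubiquitin receptor gene Adrm1 19.4 and 13.7 CPM, a ratio of −0.51 (−0.67 to −0.35). Of 16 matched genes for bound enzymes and ubiquitin shuttles, 2 were counted higher and none lower, with a median of 0.34. Neither passed 2-fold by total counts, which lowers every ratio by 0.14. The 2 were Uchl5, a deubiquitinase gene on chromosome 1, at 118 and 252 CPM with a ratio of 1.10 (1.05 to 1.15), which is 0.73 after removal of the GC-length trend, and Ecpas, a proteasome adaptor gene, at 41.5 and 87.0 CPM with a ratio of 1.07 (0.98 to 1.15). The shuttle genes Rad23b and Ubqln1, which had the highest mean levels per kb of merged exon in the list, had ratios of 0.32 and 0.20, and 0.19 and 0.06 after removal of the GC-length trend.

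Nfe2l1 encodes NRF1, the factor that raises proteasome genes when the proteasome is inhibited. It stood at 194 (P33) and 190 CPM (P42), a log2 ratio of −0.03 (−0.08 to 0.02) that became 0.23 after removal of the GC-length trend, while Vcp, the extraction ATPase that frees it from the membrane, stood at 188 and 342 CPM, a ratio of 0.86 (0.82 to 0.90). None of the 10 genes of this list was counted at 2-fold, and their median was 0.11 with 7 of 10 ratios above 0, or 0.23 with 10 of 10 after removal of the trend. Of all genes 7235 of 13737 lay above 0, and 7186 of 13668 after that removal. Members with the NRF1 letters in the promoter had a median ratio of 0.17, and those without 0.36. Members with CCGGAAG had 0.42 and those without 0.34, and members with the interferon-stimulated letters 0.15 and those without 0.39. Among ubiquitin genes, the polyubiquitin gene Ubb was lower in P42 at 317 and 192 CPM, a ratio of −0.72 (−0.76 to −0.68), the activating enzyme gene Uba1 was at 595 and 673 CPM, and none of 6 was counted at 2-fold.

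The log2 ratio varied with base composition. Across the 48 members, which share the 2 libraries and are not independent, Spearman's rho with transcript GC content, taken from the longest transcript, was −0.44, beside −0.39 over 13668 genes. Psmc6, with the lowest GC content of the members at 37.0%, had a ratio of 0.60. Psma7, with the highest at 57.4%, had one of 0.14, and Psmb5, at 56.6%, one of −0.46. Psme1 and Psme2 at 56.2% and 52.8% lay above the trend and Psmg3 at 50.4% below it. With the trend over all genes removed the median of the members was 0.22, beside 0.03 for all genes, and 37 of 48 members lay above 0, beside 7186 of the 13668 genes. The part of base composition in single values was not tested.

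**Figure D5:**
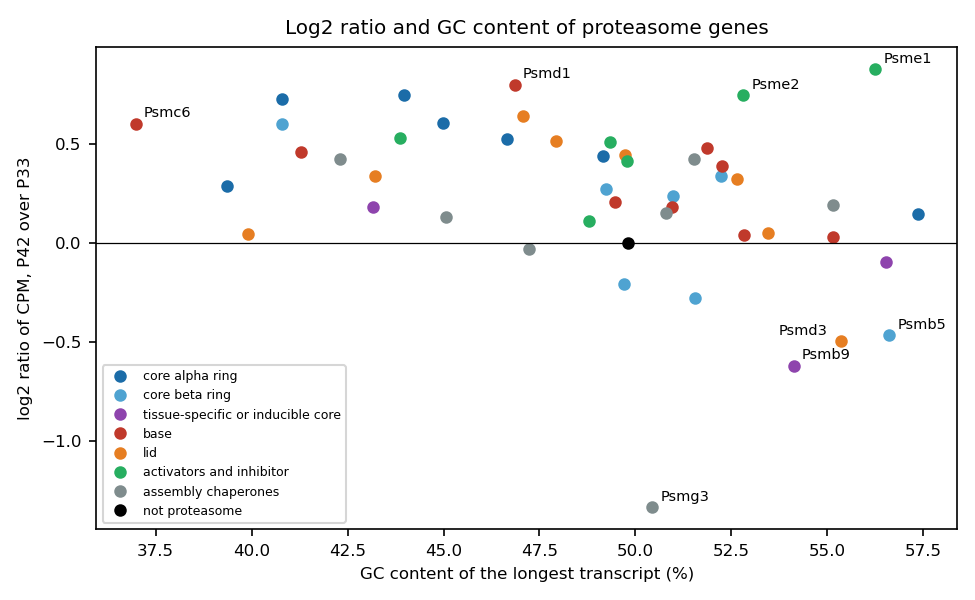
Log2 ratio of P42 over P33 against the GC content of the longest transcript, in percent, for the 48 members whose mean reached 1 CPM, coloured by role. Points fall from upper left to lower right, with Psme1 and Psme2 above the others at high GC content and Psmg3 lowest.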

How the data were processed

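Each library came as a table of raw gene counts, deposited by the authors without scaling. The submitters' processing notes name STAR (2.4.2a), featureCounts (1.4.5-p1) and the build mm10. For the annotation release, the strand setting and reads with several positions, no choice is given in the sources used here. GENCODE M21 on GRCm38, the assembly of mm10, gave a symbol for 42548 of 43629 identifiers. Under this release Psme3ip1 carries another symbol and is no member.

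Counts were scaled with TMM in edgeR 4.0.16 under R 4.3.3, with factors of 1.05 and 0.952, so that 1 CPM stood for 42.2 counts in P33 and 37.8 in P42. Log2 ratios used a prior count of 0.5, and intervals are exact Clopper-Pearson at 95%. The computations used Python 3.11.15, scipy 1.17.1 and statsmodels 0.14.6. The lowess trend on GC content and exon length had a span of 0.3, and the median over all genes was added back after its removal. In a simulation with Poisson counts, the 2-fold rule called 100 of 100 genes changed 3-fold and 0 of 100 changed 1.5-fold, a change under the threshold. The drawn counts held no spread beyond Poisson and no GC or chromosome-wide shift. The simulation therefore covers counting error only and cannot show how the rule performs on these libraries.

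Members and lists were chosen with earlier results of these data known. The rule named members counted at 2-fold, the 3 highest and 3 lowest ratios, the most and least abundant per length of each role, all inducible members with their counterparts and all activators, and from other lists those counted and the 2 most abundant per length; further genes named were chosen after their values were seen. The pathway list gene Paaf1 is not analysed here.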

Additional observations from a re-analysis of the deposited data

How the results depend on the processing

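With DESeq2 1.42.0 size factors or a prior count of 2, all 50 ratios of members stayed inside their counting intervals, and counts at 2-fold stayed at 0 higher and 1 lower. By total counts the median log2 ratio was 0.16 for all members, 0.17 for the core and 0.20 for the regulatory particle, and 39 of 50 ratios left their intervals. After removal of the trend with GC content and exon length the medians were 0.22, 0.26 and 0.20, 34 ratios left their intervals, and 1 member, Psme1, was counted higher. At 1.5-fold 9 members were higher and 2 lower (Psmg3 and Psmb9), and at 3-fold 0 were lower, as at a minimum of 10 CPM, which removes Psmg3. Over all genes, 697 higher and 1310 lower at 2-fold became 2207 and 2600 at 1.5-fold, 147 and 525 at 3-fold, 322 and 433 at a minimum of 10 CPM and 1080 and 2348 with no minimum. Detection gave 46 members at 5 CPM and 48 at 0.5 CPM, and 48 in each library alone. Leaving out either library, the share of counts ran from 0.773% to 0.910%, the median level per kb from 70.0 to 90.5 for the core and from 66.3 to 90.3 for the regulatory particle. With the coding transcript length these medians were 158 and 144. Chosen after seeing the data were 2 more settings: adding pseudogene counts, with medians of 0.30, 0.31 and 0.34, and leaving out members with over 20% shared words, with 0.29, 0.28 and 0.36. No paired analysis was possible because the study has a single group. The cause of the moved values was not tested, and with 1 library per label no difference has a replicate check.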
